A study of Danio rerio with 6 samples.

Results

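The mitochondrial ribosome genes were followed in RNA sequencing of a zebrafish melanoma line and its drug-resistant derivative. The members are all rows of the count table whose gene name begins with mrpl or mrps and a number, and there are 69 of them among 27126 gene names, 41 named for the large subunit and 28 for the small subunit. All 69 had at least 10 counts in every library, with 99 to 51422 counts per gene and library, so none was lost to the filter on low counts (at least 10 counts in 3 or more libraries), which left 16644 genes for the tests.

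The data are 6 libraries, 3 of ZMEL1 and 3 of ZMELR1, each numbered as replicates 1 to 3. ZMEL1 was grown from a melanoma of 1 fish that expressed oncogenic human BRAF from the melanocyte-specific mitfa promoter, was homozygous mutant for p53 and for mitfa, and carried an mitfa minigene with GFP as rescue cassette, so both lines share these alleles. ZMELR1 is the population that regrew from ZMEL1 during months in a BRAF inhibitor. At RNA isolation ZMEL1 cells were in DMSO and ZMELR1 cells in PLX4032 (vemurafenib) at 1 μM, in medium with 10% serum at 28.5 °C, so the history of selection and the drug in the medium cannot be told apart. Each line is a single culture lineage, and the p-values measure the spread between cultures of that lineage.

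The mitochondrial ribosome translates the few messenger RNAs that the mitochondrial genome encodes, all of them for subunits of the respiratory chain and the ATP synthase. Its RNAs come from the mitochondrial genome, but every one of its proteins is encoded in the nucleus, made on cytosolic ribosomes and imported. Some of these proteins descend from the bacterial ribosome, and others were added in the mitochondrial lineage. The small subunit reads the messenger RNA, and the large subunit joins the amino acids and holds the stalk that recruits translation factors.

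Total counts were 42591832 to 83741911 per library, lowest in ZMELR1 replicate 3. Of the melanocyte and neural crest markers, mitfa stood at 428.5 to 591.4 CPM (counts scaled to library size) in ZMEL1 and 832.3 to 949.5 in ZMELR1, and sox10 at 383.5 to 436.6 and 558.4 to 608.1. Counts per gene do not separate reads of the mitfa minigene from those of the mutant mitfa gene. Of 10 melanocyte and neural crest markers tested 3 were called higher (edgeR), among them slc24a5 and kita, and 1, oca2, lower. Over all genes tested 3.18% were called higher and 2.42% lower. Genes of melanin synthesis were at no more than 28.5 CPM in any library. Among them dct stood at 1.97 to 8.76 CPM in ZMEL1 and 1.13 to 25.9 in ZMELR1, tyrp1b at 2.47 to 7.98 and 18.6 to 28.2, and tyrp1a at no more than 0.173 CPM. Markers of leukocytes, fibroblasts, red blood cells, endothelium and muscle each summed to at most 30.1 CPM in a library. Summed epithelial markers reached 4284.6 CPM, nearly all of it from the simple keratins krt8 and krt18. Of the others, cdh1 stood at 7.15 to 14.7 CPM in ZMEL1 and 2.33 to 16.4 in ZMELR1. For krt4 the ranges were 5.69 to 8.28 and 1.16 to 1.94 CPM, and for krt5 3.08 to 9.36 and 1.01 to 1.56 CPM. The highest values of cldn7b and epcam in any library were 1.03 and 0.0685 CPM. Among the markers of these other cell types, krt4, cldn7b, the red blood cell marker gata1a and the endothelium marker fli1a were called lower (edgeR). None of these markers was called higher. All 43 genes tested of DNA replication and mitosis were lower in ZMELR1 in every replicate pair, and their median relative to each gene's own mean was -1.73 on the log2 scale in ZMELR1 replicate 3. The part of that difference in the results for the mitochondrial ribosome was not tested.

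The transcripts of the mitochondrial ribosome were lower in ZMELR1 as a group, by a small amount per gene. The median log2 fold change was -0.40 over the 41 large subunit genes and -0.44 over the 28 small subunit genes, against 0.03 over all genes tested. It was negative for 66 of the 69 members (95.7%), against 48.0% of all genes tested. Only 2 members, mrpl18 and mrps25, passed edgeR's quasi-likelihood test at an adjusted p under 0.05, both lower. They are 2.90% of the members, against 2.42% of all genes tested called lower, so the count of calls was near the background. No member was called higher, against 3.18% of all genes tested. At an unadjusted p under 0.05 by edgeR, 21 members were lower and 0 higher, against 10.9% and 13.0% of all genes tested. In such bulk RNA, less RNA per cell and a smaller share of cells with the RNA cannot be told apart.

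**Figure D1:**
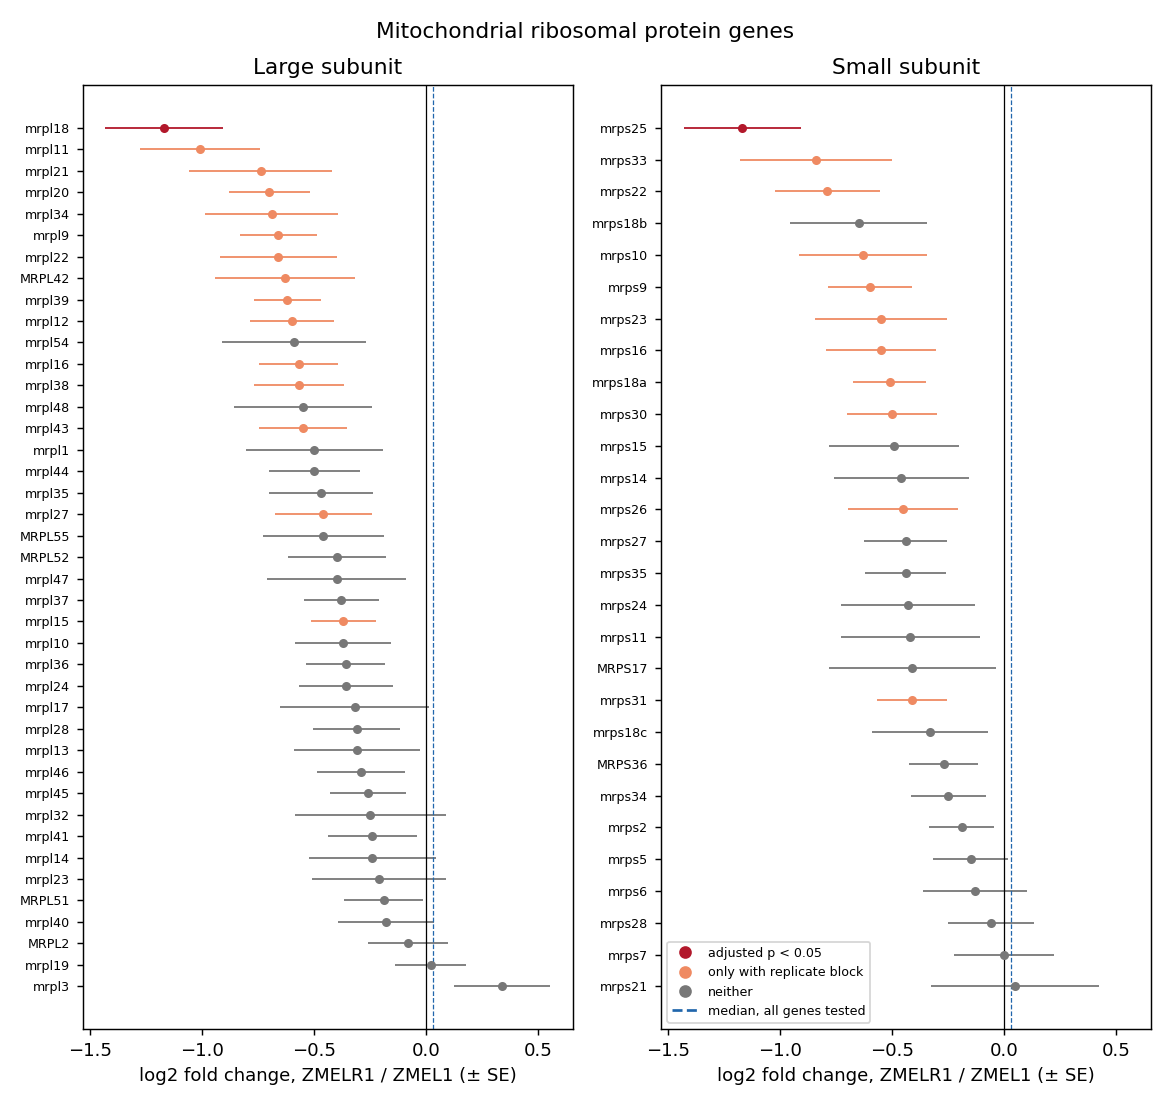
Log2 fold change of ZMELR1 over ZMEL1 for the 41 large subunit genes (left) and 28 small subunit genes (right), with the standard error from edgeR as bars and the color giving the call. All but 3 genes (mrpl3, mrpl19 and mrps21) lie left of 0, and only mrpl18 and mrps25 passed without the replicate block.

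Over all genes tested, libraries of the 2 lines that carry the same replicate number deviated together, so the test was also run with the replicate number as a block. Over the 69 members this held for replicates 1 and 2 but not for replicate 3 (Pearson's r of 0.867, 0.876 and -0.0947). With the block 26 members were lower and none was higher. They were 15 of the large subunit (36.6%) and 11 of the small subunit (39.3%), or 37.7% of the members, against 11.3% of all genes tested called lower and 12.3% called higher with the block. The median standard error of a member's log2 fold change was 0.219 without the block and 0.133 with it, against 0.300 and 0.181 over all genes tested. DESeq2 without the block called 10 members lower, against 6.55% of all genes tested, and limma-voom 1, against 2.4%. In 23 members every ZMELR1 library was below every ZMEL1 library (33.3%, against 14.4% of all genes tested), 12 of them in the large and 11 in the small subunit. No member had every ZMELR1 library above every ZMEL1 library, against 16.9% of all genes tested.

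Within each replicate pair the members were lower in ZMELR1. In pair 1 the median difference of log2 CPM (ZMELR1 minus ZMEL1) was -0.41 over the large subunit and -0.43 over the small subunit, with 39 of 41 and 27 of 28 genes lower. In pair 2 it was -0.26 and -0.23, with 37 and 26 genes lower. In pair 3 it was -0.54 and -0.66, with 39 and 25 genes lower. Pair 2 therefore showed the smallest and pair 3 the largest difference in both subunits, while the median over all genes tested was 0.05, 0.01 and -0.01 in pairs 1, 2 and 3. In all, 60 of the 69 members (87.0%) were lower in all 3 pairs, against 30.6% of all genes tested, and 1 member, mrpl3, was higher in all 3. The genes of DNA replication and mitosis had the same order of pairs, with median differences of -0.70, -0.46 and -1.91. Without ZMELR1 replicate 3, the median log2 fold change of the members was -0.32, and 65 of 69 were negative. Without ZMEL1 replicate 1 it was also -0.32, and 63 of 69 were negative. With any other library left out it was -0.58 to -0.40.

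**Figure D2:**
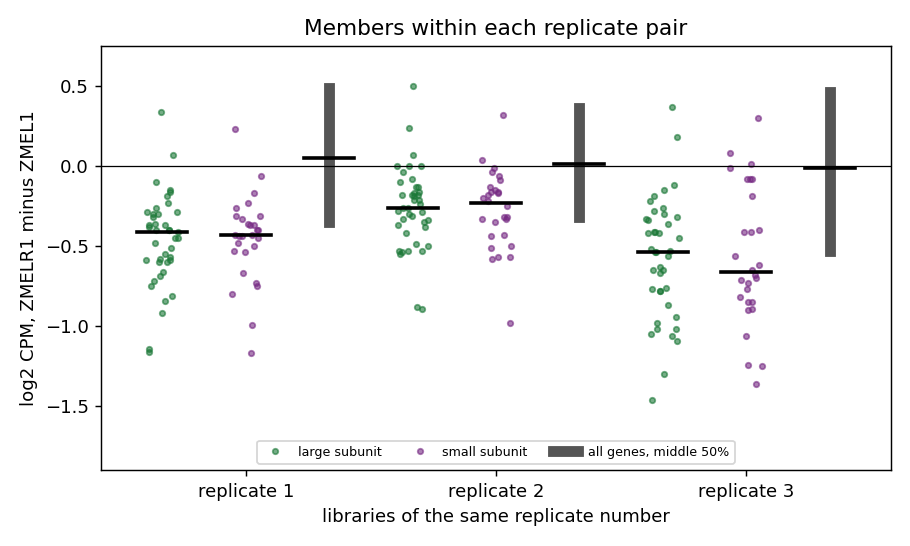
Difference of log2 CPM between ZMELR1 and ZMEL1 libraries of the same replicate number, with 1 point per member, a black line at each median and a grey bar for the middle 50% of all genes tested. In each of the 3 pairs the medians of both subunits lie below 0, between -0.23 and -0.66, while the median of all genes stays between -0.01 and 0.05.

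Summed over the large subunit, the level was 3621.9, 2770.2 and 2840.7 CPM for replicates 1, 2 and 3 of ZMEL1, and 2618.2, 2309.9 and 2103.5 CPM for those of ZMELR1. For the small subunit the sums were 1692.4, 1164.4 and 1406.0 CPM in ZMEL1, then 1260.8, 961.7 and 913.6 CPM in ZMELR1. The large subunit sums did not overlap between the lines, while those of the small subunit did, since ZMEL1 replicate 2 was below ZMELR1 replicate 1. This contrast depends on mrpl12, which alone made up 21.8% of the mean summed CPM of the large subunit. It had 734.3 CPM in ZMEL1 replicate 2 and 432.1 CPM in ZMELR1 replicate 1. By the median relative to each gene's mean, ZMELR1 replicate 1 lay above ZMEL1 replicate 2 in both subunits. As a share of all counts, the 69 genes held 0.418% to 0.497% in ZMEL1 and 0.286% to 0.368% in ZMELR1.

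In the large subunit the difference was greatest for mrpl18, a relative of the bacterial protein that binds the smallest ribosomal RNA. Its level was 85.4, 49.3 and 70.7 CPM for replicates 1, 2 and 3 of ZMEL1 and 38.8, 26.8 and 25.7 CPM in ZMELR1. All ZMELR1 libraries were below all ZMEL1 libraries, and in both lines replicate 1 was the highest. The gene fell from 68.5 ± 18.1 CPM (SD, n = 3) to 30.4 ± 7.28 CPM (SD, n = 3), which is -1.17 as log2 fold change (standard error 0.264, adjusted p by edgeR of 0.0494, blocked 0.00756). The call was lost without any 1 of the 6 libraries (edgeR adjusted p = 0.0686 to 0.174), and limma-voom gave an adjusted p of 0.0506.

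The stalk and its base, where translation factors dock, are built from the products of mrpl10, mrpl11 and mrpl12. For mrpl11, at the base of the stalk, the level was 39.2, 45.2 and 28.4 CPM in ZMEL1 and 17.5, 24.4 and 14.0 CPM in ZMELR1. The lines did not overlap, and replicate 2 was the highest in both lines, unlike in mrpl18. The log2 fold change of mrpl11 was -1.01 (standard error 0.269, adjusted p by edgeR of 0.0765, blocked 0.00632). The gene of the stalk protein itself, mrpl12, whose human product also binds the mitochondrial RNA polymerase, had the most reads of the large subunit. It stood at 817.3, 734.3 and 587.0 CPM in ZMEL1 and 432.1, 509.2 and 470.3 CPM in ZMELR1, again without overlap. Its log2 fold change was -0.60 (standard error 0.189, adjusted p by edgeR of 0.116, blocked 0.0433). That of mrpl10, which anchors the stalk, was -0.37 (edgeR adjusted p = 0.340).

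Replicates were close together for mrpl39, which has no bacterial relative in the ribosome. It stood at 46.6, 39.6 and 41.8 CPM in ZMEL1 and 28.2, 28.2 and 26.7 CPM in ZMELR1, which is -0.62 as log2 fold change (standard error 0.149, adjusted p by edgeR of 0.0578, blocked 0.0186). Close to it were mrpl20 and mrpl9, both relatives of bacterial large subunit proteins, with log2 fold changes of -0.70 and -0.66 (adjusted p by edgeR of 0.0722 and 0.0744, blocked 0.0166 and 0.0188). None of these 3 genes overlapped between the lines. The large subunit gene of fewest reads was mrpl44, whose product resembles a ribonuclease, at 7.57, 7.65 and 6.58 CPM in ZMEL1 and 4.78, 5.23 and 5.43 CPM in ZMELR1. It did not overlap either, with a log2 fold change of -0.50 (standard error 0.202, adjusted p by edgeR of 0.192, blocked 0.0787). Reads per gene also depend on transcript length, which the table does not give. The ranks by reads and the shares of summed CPM are therefore not ranks or shares of transcript number.

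One large subunit gene, mrpl3, went against the others in every pair. Its product is a relative of the bacterial protein that reaches toward the center where peptide bonds are made. The level was 283.5, 211.2 and 212.6 CPM in ZMEL1 and 357.8, 299.1 and 240.8 CPM in ZMELR1. The lines overlapped, since ZMEL1 replicate 1 was above ZMELR1 replicate 3, but each ZMELR1 library was above the ZMEL1 library of the same number, by 0.34, 0.50 and 0.18 on the log2 scale. Its log2 fold change of 0.34 did not pass (standard error 0.214, adjusted p by edgeR of 0.364, blocked 0.0859). For mrpl19 the levels were 40.0, 39.3 and 44.7 CPM and 41.9, 46.5 and 37.3 CPM, with no common direction over the pairs (log2 fold change 0.02, standard error 0.159, edgeR adjusted p = 0.955). The relative of the bacterial protein next to the peptidyl transferase center, MRPL2, was lower by 0.30 in pairs 1 and 2 and higher by 0.37 in pair 3 (log2 fold change -0.08, edgeR adjusted p = 0.826).

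In the small subunit mrps25, a protein added in the mitochondrial lineage, showed the greatest difference. Its level was 98.3, 59.8 and 71.2 CPM in ZMEL1 and 43.7, 30.3 and 27.7 CPM in ZMELR1. No library of one line reached into the range of the other. The gene fell from 76.4 ± 19.8 CPM (SD, n = 3) to 33.9 ± 8.57 CPM (SD, n = 3), which is -1.17 as log2 fold change (standard error 0.261, adjusted p by edgeR of 0.0480, blocked 0.00508). As for mrpl18, the call was lost without any 1 library (edgeR adjusted p = 0.0813 to 0.162).

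Also mitochondria-specific are the products of mrps22, mutated in a human mitochondrial disease, and mrps33. The gene mrps22 stood at 5.01, 4.26 and 4.21 CPM in ZMEL1 and 2.5, 2.84 and 2.45 CPM in ZMELR1, the fewest reads of any member, with no overlap (log2 fold change -0.79, standard error 0.234, adjusted p by edgeR of 0.101, blocked 0.0385). For mrps33 the values were 44.9, 26.1 and 27.7 CPM and 25.8, 17.6 and 11.6 CPM. The lines came close to each other there, at ZMEL1 replicate 2 and ZMELR1 replicate 1 (log2 fold change -0.84, standard error 0.341, adjusted p by edgeR of 0.191, blocked 0.0202). The gene mrps9, a relative of a bacterial protein that touches the transfer RNA, stood at 67.7, 66.7 and 51.6 CPM and 40.8, 46.9 and 35.0 CPM, with no overlap (log2 fold change -0.60, adjusted p by edgeR of 0.115, blocked 0.0190).

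**Figure D3:**
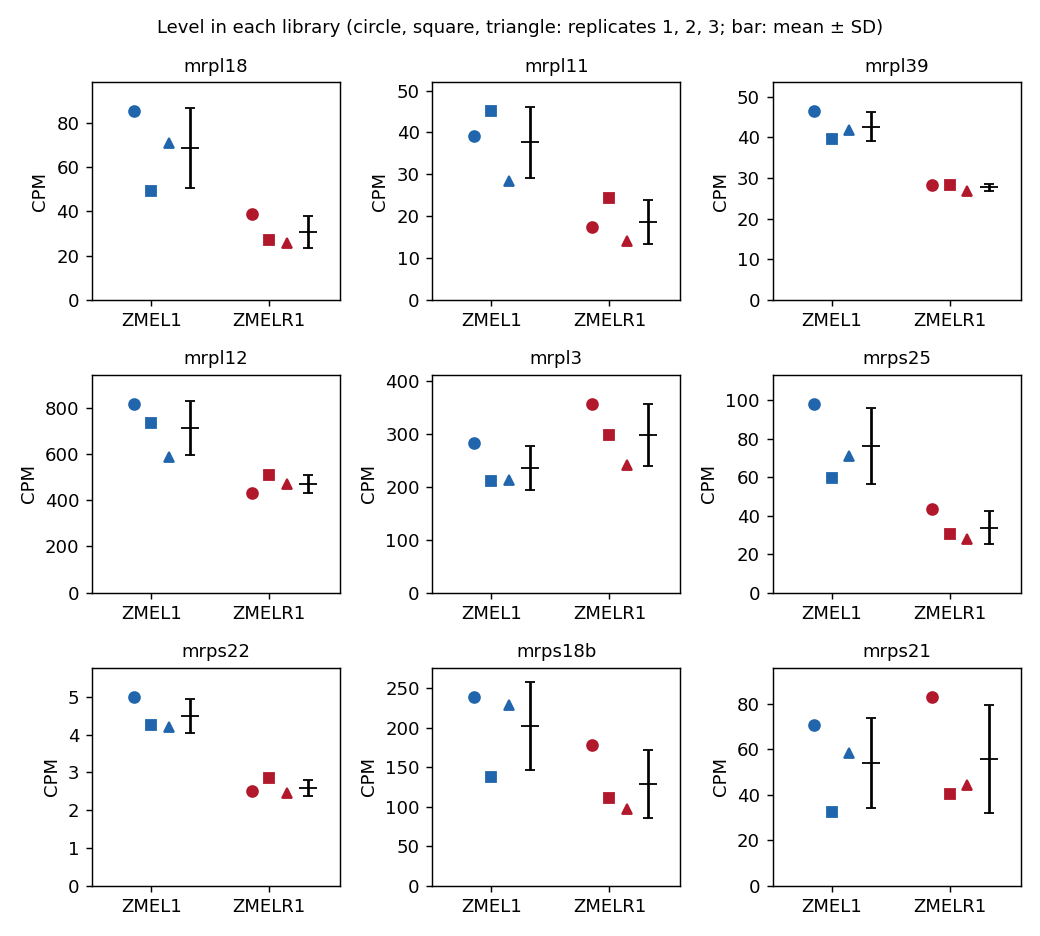
CPM in each library for 9 members, with circles, squares and triangles for replicates 1, 2 and 3, and the mean ± SD of each line as a bar (n = 3). The lines do not overlap for mrpl18, mrpl11, mrpl39, mrpl12, mrps25 and mrps22, while mrpl3, mrps18b and mrps21 overlap.

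The names do not always give the place in the ribosome. Vertebrates have 3 relatives of a single bacterial protein, and in mammals mrps18c holds the bacterial position, mrps18b another place in the small subunit and mrps18a a place in the large subunit. The 3 zebrafish genes differed in how far apart the lines lay. For mrps18a the levels were 36.3, 34.2 and 29.2 CPM in ZMEL1 and 22.8, 25.2 and 21.9 CPM in ZMELR1, without overlap (log2 fold change -0.51, standard error 0.163, adjusted p by edgeR of 0.118, blocked 0.0332). For mrps18b they were 239.7, 138.1 and 229.3 CPM and 178.0, 110.9 and 97.1 CPM (log2 fold change -0.65, standard error 0.305, adjusted p by edgeR of 0.243, blocked 0.0667). For mrps18c they were 38.3, 23.7 and 38.1 CPM and 34.0, 22.3 and 23.5 CPM (log2 fold change -0.33, standard error 0.260, adjusted p by edgeR of 0.479, blocked 0.183). The 2 latter genes overlapped between the lines, and the differences among the 3 genes were not tested. The product of mrps30 also lies in the mammalian large subunit, and that of MRPS36 belongs to an enzyme of the citric acid cycle rather than to the ribosome. Their log2 fold changes were -0.50 and -0.27 (adjusted p by edgeR of 0.189 and 0.323, blocked 0.0482 and 0.160). Counts by subunit in this report follow the names, so mrps18a, mrps30 and MRPS36 are counted with the small subunit. All 3 are among its genes without overlap, and mrps18a and mrps30 among those lower with the block.

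The small subunit genes nearest to no difference were mrps21 and mrps7. For mrps21 the levels were 70.9, 32.3 and 58.6 CPM in ZMEL1 and 83.3, 40.4 and 44.2 CPM in ZMELR1. It was higher in pairs 1 and 2 and lower in pair 3, so that the log2 fold change was 0.05 with a standard error of 0.375 (edgeR adjusted p = 0.946), and -0.34 without ZMELR1 replicate 1. The levels of mrps7 were 24.6, 25.3 and 17.7 CPM and 23.5, 26.1 and 17.9 CPM (edgeR adjusted p = 0.998). In it the pairs differed by -0.06, 0.04 and 0.01 on the log2 scale, although replicate 3 was the lowest in both lines.

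Members with and without bacterial relatives were set side by side, by a division made after the values were seen. Of 44 members with a bacterial relative 41 had a negative log2 fold change, with a median of -0.42 and a range of -1.17 to 0.34. All 24 mitochondria-specific members had a negative one, with a median of -0.47 and a range of -1.17 to -0.18. The lines did not overlap, with ZMELR1 lower, in 10 of the 44 and in 12 of the 24, against 14.4% of all genes tested. With the block 15 and 11 were called lower, against 11.3% of all genes tested. The difference between the classes was not tested.

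For replicates 1 and 2, but not for replicate 3, the deviations of the members from the other replicates correlated between the lines. Replicate 1 was above the mean of the other 2 replicates in both lines for 54 of the 69 members (78.3%, against 36.5% of all genes tested), and below it in both lines for none (0 of 69, against 35.4%). Replicate 2 split the members. It was below the mean of replicates 1 and 3 in both lines for 39 members (56.5%, against 35.5% of all genes tested). It was above that mean in both for 12 (17.4%, against 36.8%). For mrps21 it was lower by 1.00 in ZMEL1 and 0.59 in ZMELR1 on the log2 scale, while for mrpl11 it was higher by 0.44 and 0.64. Across the 69 members the deviation of replicate 2 in ZMEL1 correlated with that in ZMELR1 at a Pearson's r of 0.876 (Spearman's rho 0.869), and that of replicate 1 at 0.867 (0.880). That of replicate 3 correlated at -0.0947 (-0.150). Replicate 3 was below the mean of the other 2 in both lines for 29 members (42.0%, against 31.2% of all genes tested). It was above that mean in both for 2 (2.9%, against 33.7%). Over all genes tested r was 0.552, 0.587 and 0.508 for replicates 1, 2 and 3. These correlations are across genes, which are not independent replicates, and every point shares the same 6 libraries. The labels do not say what a replicate number stands for.

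**Figure D4:**
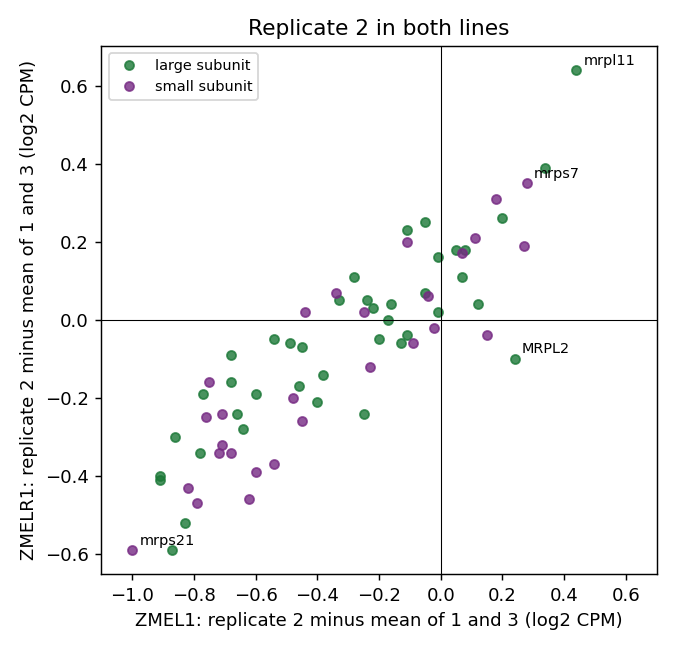
For each of the 69 members, log2 CPM in replicate 2 minus the mean of replicates 1 and 3, in ZMEL1 (horizontal) and in ZMELR1 (vertical). The points run from mrps21 (-1.0 and -0.59) to mrpl11 (0.44 and 0.64), and 39 members lie below 0 and 12 above 0 in both lines.

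A single pair of members, mrpl46 and mrps11, are neighbors among protein-coding genes of the GRCz12tu assembly, in which 68 of the 69 names were matched. Their log2 fold changes were -0.29 and -0.42 (adjusted p by edgeR of 0.405 and 0.439). In ZMEL1 mrpl46 stood at 32.2, 21.6 and 27.4 CPM and mrps11 at 62.6, 31.8 and 43.7 CPM, so replicate 1 was the highest and replicate 2 the lowest for both. In ZMELR1 they stood at 24.4, 20.4 and 21.7 CPM and at 46.5, 28.5 and 27.9 CPM.

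Of 7 further subunits whose names lack the prefix, aurkaip1 and ptcd3 fell and 5 did not pass (28.6% lower, against 2.42% of all genes). The median log2 fold change of the 7 was -0.29, and -0.49 to -0.21 with 1 library left out. With the block 3 fell and 1 rose, against 11.3% and 12.3% of all genes tested. The gene aurkaip1 stood at 116.2, 104.3 and 99.0 CPM in ZMEL1 and 62.8, 66.0 and 56.4 CPM in ZMELR1 (log2 fold change -0.79, standard error 0.153, edgeR adjusted p = 0.0328). The gene ptcd3, for a small subunit protein with pentatricopeptide repeats, stood at 88.2, 92.5 and 73.8 CPM and 47.9, 55.2 and 44.3 CPM (log2 fold change -0.79, standard error 0.169, edgeR adjusted p = 0.0440). Both calls were lost without any 1 library (edgeR adjusted p = 0.0531 to 0.138 and 0.0701 to 0.163). With scaling by library size only, 0 of the 7 were called lower. With at least 10 counts in every library, or with only genes of 0 counts removed, 1 was. In the other direction ICT1, a release factor built into the large subunit, stood at 3.45, 2.23 and 4.06 CPM and 5.69, 4.54 and 5.97 CPM without overlap (log2 fold change 0.73, adjusted p by edgeR of 0.190, blocked 0.0383). Among genes of assembly and rRNA modification ybey fell, from 7.82 ± 0.867 to 3.29 ± 0.250 CPM (SD, n = 3), which is -1.25 as log2 fold change (standard error 0.216, edgeR adjusted p = 0.0226). The range with 1 library left out was 0.0321 to 0.119 for this edgeR adjusted p. It was the only 1 of 31 assembly and rRNA modification genes to pass (3.23%), and 6 of them were lower with the block (19.4%).

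The machinery around the mitochondrial ribosome showed smaller medians. The median log2 fold change was -0.15 over 17 translation factors, -0.21 over 16 mitochondrial aminoacyl-tRNA synthetases and -0.13 over the 31 assembly genes. It was -0.22 over 22 regulators of mitochondrial transcription and biogenesis. Every ZMELR1 library was below every ZMEL1 library for 29.4% of the factors, 31.2% of the synthetases, 25.8% of the assembly genes and 31.8% of the regulators. These shares were close to the 33.3% of the members, against 14.4% of all genes tested. In the other direction there were 1, 0, 1 and 0 genes without overlap, against 16.9% of all genes tested. None of the factors, synthetases or regulators passed with edgeR, while 3, 0 and 2 were lower at an unadjusted p under 0.05 (10.9% of all genes tested) and 4, 0 and 3 with the block (11.3% of all genes tested). The counts of regulators were near these backgrounds. The median of the factors was -0.25 without ZMEL1 replicate 2, -0.29 without ZMEL1 replicate 3 and -0.24 without ZMELR1 replicate 2. That of the assembly genes was -0.04 without ZMEL1 replicate 1, -0.23 without ZMEL1 replicate 2 or ZMELR1 replicate 1, and -0.07 without ZMELR1 replicate 2. The differences between these groups and the members were not tested.

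The messenger RNAs that the mitochondrial ribosome translates did not separate by line. Their sum was 38036.2, 31776.4 and 25904.3 CPM for replicates 1, 2 and 3 of ZMEL1, and 40231.8, 30410.5 and 26212.1 CPM for those of ZMELR1. None of the 13 passed with edgeR, with or without the block, 0 had an unadjusted p under 0.05 without it, and none was free of overlap in either direction. Their median log2 fold change was -0.10, and mt-co1, for the catalytic subunit of cytochrome oxidase, had the highest at 0.27 (standard error 0.235, edgeR adjusted p = 0.516). In both lines the sum was highest in replicate 1 and lowest in replicate 3. The median was 0.08 without ZMELR1 replicate 3 and -0.02 without ZMEL1 replicate 1 or 2. It was -0.30, -0.25 and -0.19 without ZMEL1 replicate 3, ZMELR1 replicate 1 and ZMELR1 replicate 2. Among the fits with 1 library left out its sign turned only without ZMELR1 replicate 3. With replicate 3 of both lines left out the median was -0.12, with or without the block. PolyA selection was used for these libraries, and its part in these values was not tested.

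Other nuclear genes of the mitochondrion lay close to the members. Over 85 oxidative phosphorylation subunits the median log2 fold change was -0.39, with none called without the block and 33 lower and 2 higher with it (38.8% lower). Over 38 import and chaperone genes it was -0.35, with 11 lower and 1 higher with the block (28.9% lower). The lines did not overlap, with ZMELR1 lower, for 24.7% of the oxidative phosphorylation and 36.8% of the import genes, against 14.4% of all genes tested. With ZMELR1 higher there were 0 and 2 such genes, against 16.9% of all genes tested. The cytosolic ribosomal proteins, the counterparts outside the mitochondrion, lay on the other side of 0. Their median over 78 genes was 0.35, none was called without the block, and 19 were higher and none lower with it. Over all genes tested, 11.3% were lower and 12.3% higher with the block. At an unadjusted p under 0.05 by edgeR without the block, 18 oxidative phosphorylation genes were lower, 10 import genes were lower and 1 higher, and 12 cytosolic ribosomal protein genes were higher and 0 lower, against 10.9% lower and 13.0% higher over all genes tested. The 12 are near that background. The median of the oxidative phosphorylation genes was -0.25 without ZMEL1 replicate 1. That of the cytosolic ribosomal proteins was 0.58 without ZMEL1 replicate 1, 0.17 without ZMEL1 replicate 2 and 0.19 without ZMELR1 replicate 1. The cytosolic ribosomal proteins held 11.9% to 16.6% of the counts in ZMEL1 and 14.9% to 20.3% in ZMELR1.

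**Figure D5:**
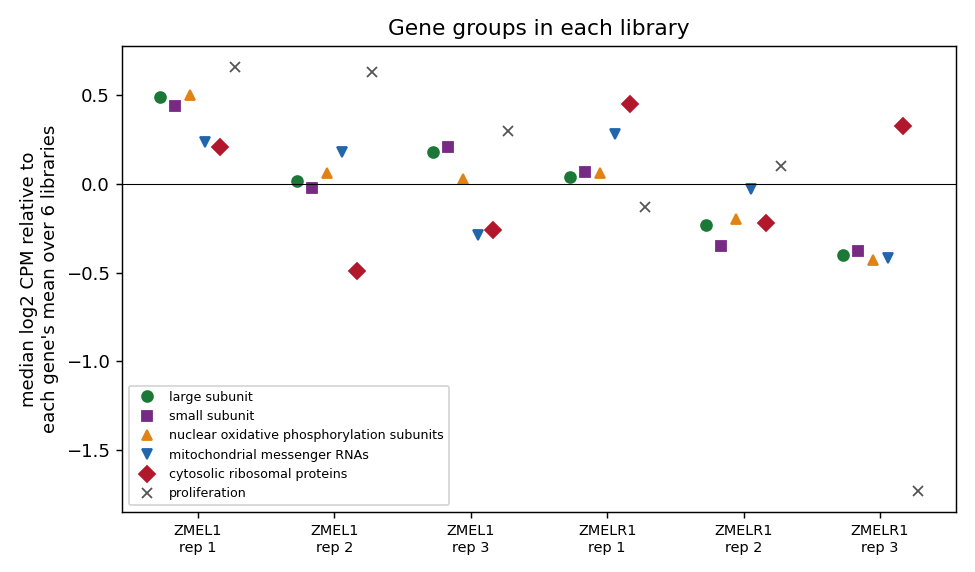
Median over each gene group of log2 CPM relative to each gene's own mean over the 6 libraries, by library. The large subunit (0.49, 0.02 and 0.18 in ZMEL1, 0.04, -0.23 and -0.40 in ZMELR1) and the small subunit are highest in ZMEL1 replicate 1, and the proliferation genes reach -1.73 in ZMELR1 replicate 3.

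By library, the median of the large subunit relative to each gene's mean was 0.49, 0.02 and 0.18 for replicates 1, 2 and 3 of ZMEL1 and 0.04, -0.23 and -0.40 in ZMELR1. That of the small subunit was 0.44, -0.02 and 0.21 and then 0.07, -0.35 and -0.38. ZMELR1 replicate 1 thus lay above ZMEL1 replicate 2 in both, and every other ZMELR1 library lay below every ZMEL1 library, as ZMELR1 replicate 1 lay below ZMEL1 replicates 1 and 3. The genes of DNA replication and mitosis stood at 0.66, 0.63 and 0.30 and then at -0.13, 0.10 and -1.73. Their median log2 fold change was -0.87, and -0.49 without ZMELR1 replicate 3. In 21 of the 43 (48.8%) every ZMELR1 library was below every ZMEL1 library, against 33.3% of the members and 14.4% of all genes tested. None of the 43 passed without the block. At an unadjusted p under 0.05 by edgeR 15 were lower, against 10.9% of all genes tested. With the block 16 were lower (37.2%, against 11.3% of all genes tested). The 43 genes were lowest in ZMELR1 replicate 3, as the members were, at -0.39. So were the oxidative phosphorylation subunits (-0.43) and the mitochondrial messenger RNAs (-0.42). In ZMEL1 replicate 2 the 43 genes stood at 0.63 and the members at 0.0.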

How the data were processed

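Polyadenylated RNA of both lines was sequenced as paired ends. The deposited values are counts: per the paper's methods, the authors aligned reads to Zv9 with TopHat2 and counted them per Ensembl gene with HTSeq-count, with no normalization. The strand setting is not given in the sources used here. Names turned into date numbers by a spreadsheet (17 rows) were kept.

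Counts were compared in R 4.3.3 with edgeR 4.0.16 (quasi-likelihood F test, TMM factors 0.9355 to 1.085, Benjamini-Hochberg adjustment over 16644 genes, threshold 0.05). TMM-scaled CPM gives the levels, and a prior count of 2 was added for log2 CPM. Members and lists were chosen with earlier results of these data known, and the lists are described by counts and medians without a list test. Named members are those called, the 3 of smallest p per subunit and direction, those of most and fewest reads, 6 whose call changes with the block, and the mrps18 copies; others named (among them mrpl10, MRPL2, mrps7, mrps30, MRPS36, mrpl46, mrps11 and ICT1) were chosen after their values were seen.

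Same-numbered libraries had deviations from their line's mean that correlated at 0.552, 0.587 and 0.508, against -0.506 to -0.0253 for unlike numbers. Within a line the deviations of a gene cancel out, so negative values for unlike numbers are partly built in. What the numbers share is not stated, so the unblocked test is the one reported. Alternatives used DESeq2 1.42.0 and limma 3.58.1 (voom), other filters and factors, and each library left out. The fits were checked on simulated counts. Those counts held no effect shared by replicate number, so the check cannot decide whether the block belongs in the test. Python 3.11.15 with pandas 2.3.3, scipy 1.17.1 and matplotlib 3.10.9 made the summaries and figures. Gene symbols were matched to RefSeq (GRCz12tu) for neighbors only, and no sequences were used here.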

Additional observations from a re-analysis of the deposited data

How the results depend on the processing

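The medians of both subunits kept their sign and stayed within 1 SD of the pair medians under every alternative run, at -0.53 to -0.30 (large) and -0.60 to -0.31 (small) with 1 library left out. Calls depended on the fit. Members called lower were 1 in each subunit, against 2.42% of all genes tested. With at least 10 counts in every library, or without replicate 3 of both lines, they were 0 in each, against 1.1% and 2.72%. In these 2 settings 22 and 16 of the 69 had an unadjusted p under 0.05 by edgeR. DESeq2 called 7 large and 3 small subunit members, limma-voom 0 and 1, and edgeR with the replicate block 15 and 11. Over all genes tested 6.55%, 2.4% and 11.3% were called lower in these settings. Without any 1 library the count was 0 in both subunits, against 0.295% to 2.49% of all genes tested (7 to 31 members had an unadjusted p under 0.05). Without replicate 3 of both lines but with the block, which leaves 1 residual degree of freedom, 33 and 22 were lower. In that setting 1 of each was higher (mrpl3 and mrps21). Over all genes 4417 were lower (26.2%) and 3989 higher.

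Over all genes 530 were called higher and 402 lower; the counts were 284 and 161 with at least 10 counts in every library, 1252 and 1091 with DESeq2, and 2050 and 1888 with the block. With 1 library left out they were 63 to 470 higher and 48 to 410 lower. Some log2 fold changes that had not passed turned in direction. For mrps21 they ranged from -0.34 to 0.29 and for mrpl19 from -0.07 to 0.10 with 1 library left out. In the same way mrps7 ranged from -0.19 to 0.14, mrps28 from -0.22 to 0.08 and mrpl32 from -0.58 to 0.01. The upper ends for MRPL2 and mrps6 were 0.0. For mrpl19 the value was -0.01 with only genes of 0 counts removed. With 1 library left out chchd1 ranged from -0.49 to 0.02, mt-co2 from -0.44 to 0.26, mt-co3 from -0.23 to 0.10, mt-cyb from -0.14 to 0.40, mt-nd3 from -0.44 to 0.19, mt-nd4 from -0.35 to 0.14, mt-nd4l from -0.30 to 0.10, mt-nd5 from -0.31 to 0.08 and mt-nd6 from -0.36 to 0.08. Without replicate 3 of both lines mt-co2 was 0.03 (0.02 with the block) and mt-nd3 0.01, and mt-co3 was 0.01 with limma-voom and with the block. The causes were not tested. Scaling moved the median over all genes by no more than 0.03, and the lowest count of a member in any library was 99.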
